A study of Drosophila melanogaster with 4 samples.

Results

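The retinal determination genes are a small network of transcription factors that turns a larval epithelium into the eye. Of the 13568 genes named in these libraries, 10 were taken by name as known members of this network: *ey*, *toy*, *so*, *eya*, *dac*, *Optix*, *eyg*, *toe*, *ato* and *gl*. *ey* and *toy* lie on chromosome 4, the small heterochromatic chromosome of Drosophila melanogaster, and the other 8 genes on other chromosomes. The RNA came from whole larvae of the third instar, with 2 HP1a mutant libraries and 2 wildtype libraries described as duplicate biological samples. The mutant larvae carried allele 04 over allele 05 of the gene for the heterochromatin protein HP1a, and were picked from a cross of balanced stocks by their lack of GFP. The wildtype was Oregon R, a standard laboratory stock. All stocks were kept at 25°C and 70% humidity. Such mutants are known to reach the third instar on HP1a that the mother loaded into the egg. No source used here gives the age in hours, the sex or the number of larvae per library, and what either stock differs in besides HP1a cannot be told apart from the genotype.

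In the eye-antennal disc, the sheet of cells that becomes the adult eye, the Pax6 proteins Twin of eyeless (*toy*) and Eyeless (*ey*) sit at the top of the network, and *toy* activates *ey*. They switch on *sine oculis* (*so*), a homeodomain factor, *eyes absent* (*eya*), its coactivator and a protein phosphatase, and *dachshund* (*dac*), a nuclear cofactor. In the third instar a wave of differentiation, the morphogenetic furrow, crosses the disc, and the proneural gene *atonal* (*ato*) and the zinc finger gene *glass* (*gl*) act at and behind it. Several of these genes also work elsewhere, *ey*, *toy*, *dac* and *eya* in the brain among other places. In RNA of whole larvae, fewer cells that express a gene and less RNA of it per cell cannot be told apart.

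The values are FPKM, the fragments assigned to a transcript per kilobase of its length, scaled to the size of the library, here summed over the transcripts of a gene. The targeted gene fit the labels. The HP1a gene had FPKM of 27.8 and 20.1 in the HP1a mutant libraries, against 125 and 137 in the wildtype libraries (log2 fold change -2.42, standard error 0.22, adjusted p = 0.00275 from limma). The deposited bounds of the FPKM imply 7320733 to 7656033 fragments on transcripts in a library. Of these, the 10 genes together held 128 and 64.6 in the mutant libraries, against 720 and 741 in the wildtype libraries. Such sums over transcripts may count shared fragments more than once, as for *Optix* in the mutant. The levels of single genes in the mutant thus rest on few fragments. Expression of the median gene was lower in the mutant as well. Among 9447 genes tested in limma, the median log2 fold change of FPKM + 1 was -0.84, and it was -0.02 once each library was rescaled to the same median FPKM.

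All 10 genes had lower FPKM in both HP1a mutant libraries than in both wildtype libraries. Summed over the genes, the level was 2.85 to 5.17 FPKM in the mutant and 29.3 to 30.2 FPKM in wildtype. Lying wholly below wildtype is common in these data. It held for 66.0% of the 13177 genes with any signal, and for 40.1% of them with the libraries rescaled, where all 10 genes still did so. The median over the 10 genes was 11.2% of the wildtype mean, where the median tested gene was at 52.7%. The genes share the same 4 libraries and are not replicates of each other.

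**Figure D1:**
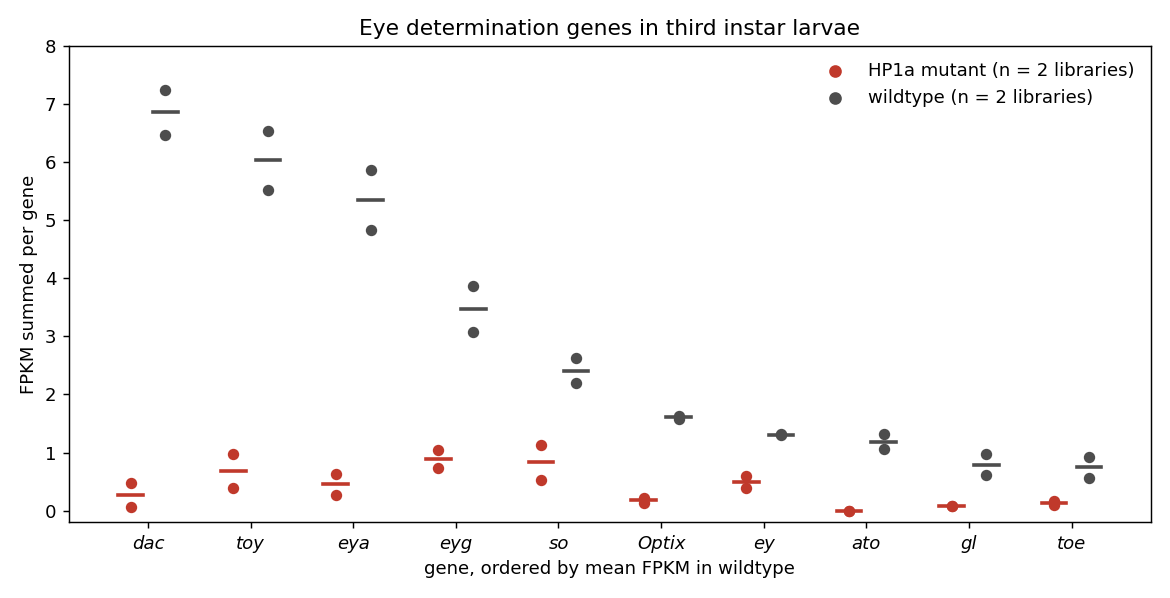
FPKM of the 10 eye determination genes, summed per gene, in each HP1a mutant library (red, left of each pair) and each wildtype library (grey, right), with bars at the means of 2 libraries. Genes run from the highest wildtype mean (*dac*, 6.86) to the lowest (*toe*, 0.743), and the red points lie below the grey points in every gene.

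The order of the levels differed between the genotypes. In the mutant the highest was *eyg* with a mean of 0.884 FPKM, followed by *so*, *toy*, *ey*, *eya*, *dac*, *Optix*, *toe*, *gl* and *ato*, and the ranges of neighbours overlapped down to *toe*. In wildtype the highest was *dac* with a mean of 6.86 FPKM, followed by *toy*, *eya*, *eyg*, *so*, *Optix*, *ey*, *ato*, *gl* and *toe*. There the ranges overlapped for *dac* and *toy*, *toy* and *eya*, *ey* and *ato*, and *gl* and *toe*, while the other neighbours did not. *ey* ranked 4 of the 10 in the mutant and 7 of the 10 in wildtype.

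*toy* (chromosome 4, 1010354 to 1026926, coordinates of genome Release 5 throughout) had FPKM of 0.977 and 0.394 in the HP1a mutant libraries, against 5.52 and 6.53 in the wildtype libraries. These rest on 18 and 7 fragments in the mutant, against 94 and 114 in wildtype, and the higher mutant library was 5.65 times below the lower wildtype library. The fall was -2.08 on the log2 scale of FPKM + 1 (standard error 0.26, adjusted p = 0.00425 from limma), and a fall at least as large was found in 13.7% of the tested genes. Of the 78 genes of chromosome 4, 62 were tested, and among these *toy* had the largest fall on this scale. The untested genes, *ey* among them, have no rank. *toy* reached the expression cutoff of the test through wildtype alone, and a gene that enters in this way had to differ. The rank and the share of 13.7% are therefore descriptions only. Among the other 61 tested genes of chromosome 4, the median was -1.02, where that of all tested genes was -0.84. Past the FDR of 0.01, 28 of the 61 were lower and 3 higher, where 34.4% and 6.98% of all tested genes were.

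*ey* (chromosome 4, 718315 to 741785), the other Pax6 gene, had FPKM of 0.595 and 0.394 in the mutant libraries, against 1.32 and 1.29 in the wildtype libraries. With 14 and 9 fragments in the mutant and 29 in each wildtype library, it kept 37.8% of its wildtype level, the largest share of the 10 genes. Its 4 transcripts each had lower FPKM in both mutant libraries, but Cufflinks gave their status as LOWDATA there, its mark for too little data, so how the fragments were divided among them is uncertain. *ey* was also below the expression cutoff of the test, so it was outside the test on both counts. The log2 ratio of *toy* over *ey* within a library does not depend on how libraries are scaled. *toy* was 1.64 and 1.000 times as high as *ey* in the mutant libraries, against 4.17 and 5.05 times in the wildtype libraries, so that the genotypes did not overlap.

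The partners *eya* and *so*, whose proteins act as 1 complex, differed in how much of their level was left. *eya* (2L, 6527449 to 6546972) had FPKM of 0.634 and 0.276 in the HP1a mutant libraries, against 4.84 and 5.86 in the wildtype libraries, which is 17 and 7 fragments against 119 and 147. It fell by 2.13 on that log2 scale (limma, standard error 0.23, adjusted p = 0.00352), and its 2 transcripts were both lower in both mutant libraries. *so* (2R, 3306537 to 3322377) had FPKM of 1.14 and 0.528 in the mutant libraries, against 2.63 and 2.19 in the wildtype libraries, with 29 and 13 fragments against 62 and 53. At 34.5% of wildtype it was, after *ey*, the gene with the most left, and its higher mutant library lay 1.93 times below the lower wildtype library, the narrowest gap of the genes above 0. Its locus overlaps that of *CG11145*, and fragments could be shared with it, as the use of strand in counting is not given.

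*dac* (2L, 16466510 to 16485984), the cofactor at the end of the core network, had the highest level in wildtype and very little in the mutant. Its FPKM was 0.480 and 0.0640 in the HP1a mutant libraries, against 7.24 and 6.47 in the wildtype libraries, an estimated 20 and 2.57 fragments against 279 and 255. Its mutant mean was 3.96% of wildtype, the lowest share of the genes still detected. The status was LOWDATA for all 6 transcripts in 3 of the 4 libraries, wildtype replicate 2 among them, so that *dac* was also outside the test.

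*Optix* (2R, 3919138 to 3930038) is a relative of *so* that also acts in the eye. Its FPKM was 0.135 and 0.216 in the mutant libraries, against 1.63 and 1.58 in the wildtype libraries. The wildtype values rest on 25 and 26 fragments. In the mutant, the bounds imply 2 and 3 fragments for each of its 2 transcripts. These can be the same fragments, so that the whole gene may rest on 2 and 3. *so* was 8.41 and 2.44 times as high as *Optix* in the mutant libraries, against 1.61 and 1.38 times in the wildtype libraries. These ratios did not overlap, but they rest on very few *Optix* fragments, and they overlap with a pseudocount of 1.

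*eyg* and *toe* encode Pax proteins of another type, which act in growth of the eye disc, and lie near each other on 3L. *eyg* (12456134 to 12461121) had FPKM of 1.04 and 0.732 in the HP1a mutant libraries, against 3.87 and 3.08 in the wildtype libraries, and kept 25.5% of wildtype, with 22 and 15 fragments against 76 and 62. Its status was LOWDATA in mutant replicate 2, so the fragments there are an estimate. *toe* (12415608 to 12425768) had FPKM of 0.103 and 0.161 in the mutant libraries, against 0.559 and 0.927 in the wildtype libraries, which is 2 and 3 fragments against 10 and 17. The ratio of *eyg* over *toe* was 10.02 and 4.55 in the mutant libraries, against 6.91 and 3.32 in the wildtype libraries, and here the genotypes overlapped.

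*ato* and *gl*, which act in differentiation, had the lowest levels in the mutant. *ato* (3R, 4103514 to 4104996), which founds the first photoreceptor of each facet, was listed at 0 in both HP1a mutant libraries, against FPKM of 1.06 and 1.31 in the wildtype libraries. The wildtype values rest on 11 and 14 fragments. For scale, 3 fragments would be an FPKM of 0.266 in mutant replicate 1 and 0.276 in mutant replicate 2. The status of *ato* was OK in all 4 libraries. Of 88 genes named as ribosomal proteins, 1 and 2 were also listed at 0 in the mutant libraries, against 1 and 0 in the wildtype libraries. Why those were at 0 was not examined. No fold change is given for *ato*. *gl* (3R, 14193649 to 14198460), needed for photoreceptors to differentiate, had FPKM of 0.0758 and 0.0786 in the mutant libraries, 2 fragments in each, against 0.615 and 0.970 in the wildtype libraries, with 15 and 24 fragments. Its status was LOWDATA in both mutant libraries, so the fragments there are estimates. Such fragment numbers bear on counting error only.

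**Figure D2:**
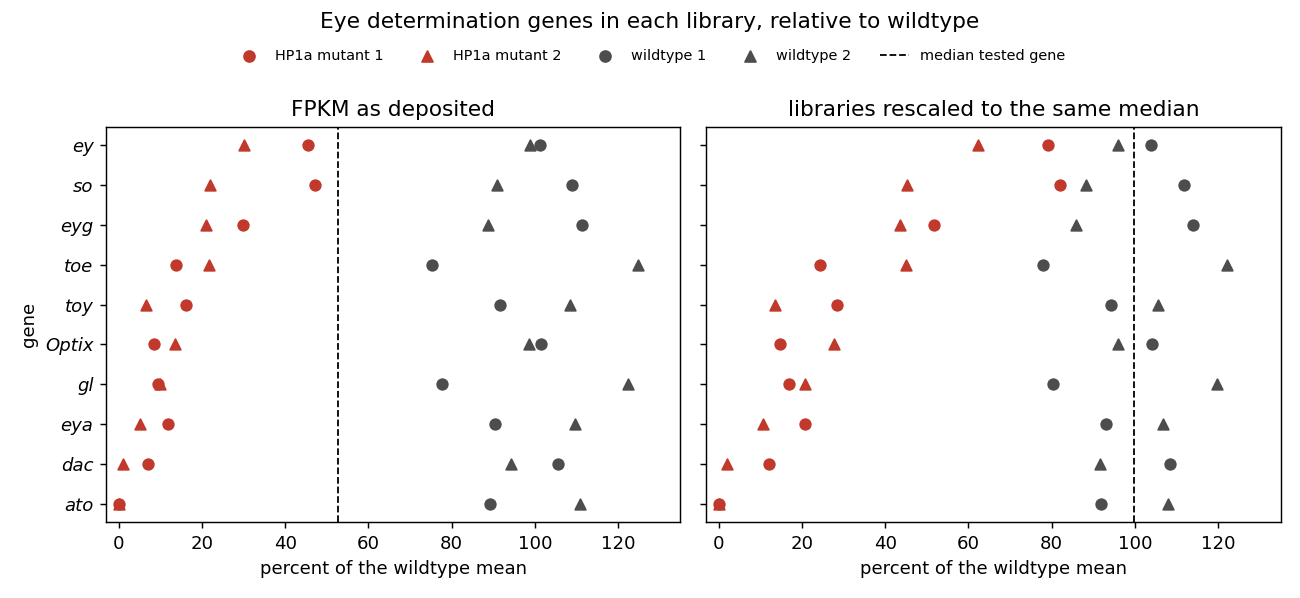
Each library's level as a percent of the wildtype mean of the gene, for HP1a mutant libraries (red) and wildtype libraries (grey), as deposited (left panel) and with the libraries rescaled to the same median (right panel). The dashed line is the median tested gene, at 52.7% as deposited and 99.8% rescaled, and every mutant point lies left of it, with *ey* and *so* the nearest.

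In each of the 10 genes, the gap in FPKM between the genotypes was larger than the difference between the replicates of either. Mutant replicate 2 was below mutant replicate 1 for 6 of the 10 genes (*ey*, *toy*, *so*, *eya*, *dac* and *eyg*) and above it for 3. For *dac* the mutant libraries were 7.00% and 0.934% of the wildtype mean, and for *toy* 16.2% and 6.54%. Wildtype replicate 2 was above wildtype replicate 1 for 5 of the 10.

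In limma, 2 of the 10 genes could be tested, *toy* and *eya*, and each passed the FDR of 0.01 as lower in the mutant, where 34.4% of all tested genes did. Both reached the expression cutoff, a mean log2(FPKM + 1) of 1.4 over the 4 libraries, through wildtype alone. *toy* averaged 0.73 in the mutant and 2.81 in wildtype on that scale, and *eya* 0.53 in the mutant and 2.66 in wildtype. Genes that enter the test in this way had to differ, so the count says nothing of the 10 genes as a set, and the same holds for listed genes that are high in wildtype only. Of the other 8 genes, 6 were below the cutoff and 4 had a status other than OK in some library, with some genes failing on both counts. With neither filter, all 10 could be fitted, and 6 passed as lower (*toy*, *eya*, *dac*, *Optix*, *eyg* and *ato*), where 24.6% of the 13177 genes did. With the libraries also rescaled, 2 of the 10 passed as lower, *dac* (adjusted p = 0.00921 from limma) and *ato* (adjusted p = 0.00866 from limma), where 5.02% of the 13177 genes did. There *eya* (adjusted p = 0.0101), *toy* (adjusted p = 0.0178), *Optix* (adjusted p = 0.0212) and *eyg* (adjusted p = 0.102) no longer passed in limma. Both fits were added after the data were seen. Of the 2 genes that passed after the rescaling, *ato* was at 0 in both mutant libraries. Its mutant values therefore had no spread and could not move with the scale. *dac* had the status LOWDATA in 3 of the 4 libraries. The calls of these 2 genes are therefore descriptions only. The genes that had not passed before the rescaling were *ey* at -0.63 (adjusted p = 0.0201), *so* at -0.91 (adjusted p = 0.0308), *toe* at -0.62 (adjusted p = 0.0275) and *gl* at -0.73 (adjusted p = 0.0157), all from limma with log2 fold changes of FPKM + 1. That scale understates the change of genes this low.

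Scaling and single libraries decided some calls. With the libraries rescaled to the same median, *eya* passed at a log2 fold change of -1.61 (adjusted p = 0.00801 from limma) while *toy*, at -1.51, did not (adjusted p = 0.0116 from limma), and 10.1% of all tested genes passed as lower. Neither passed with quantile normalization, where *eya* was at -1.07 and *toy* at -0.98, or without wildtype replicate 1 or without wildtype replicate 2, where 0 of the 9447 genes passed in limma and 4700 and 4601 had an unadjusted p under 0.05. After the rescaling, *ey* stood at 70.7% of wildtype and *so* at 63.6%, against 20.9% for *toy*, 15.7% for *eya* and 7.05% for *dac*.

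**Figure D3:**
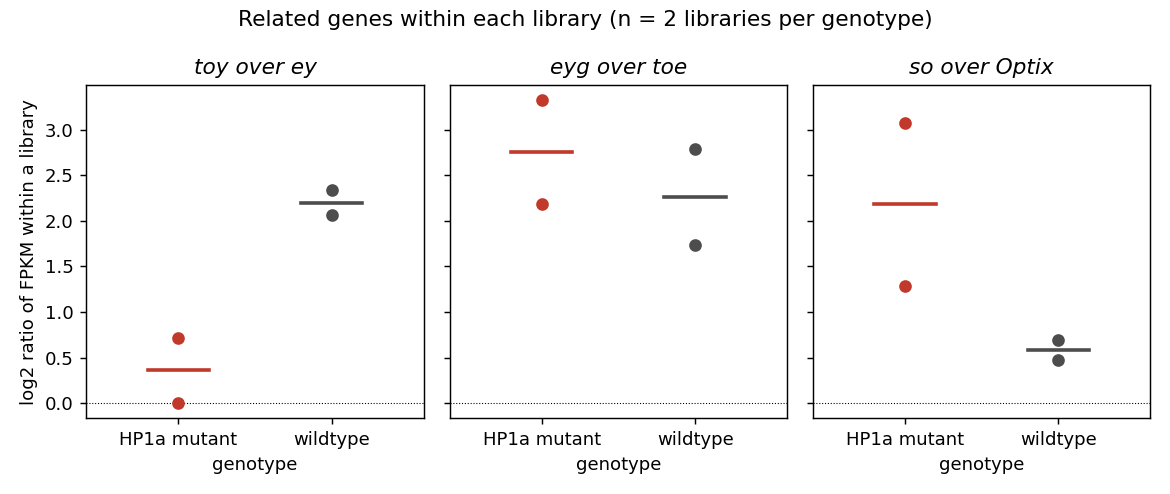
Log2 ratio of FPKM of related genes within each library, for HP1a mutant (red) and wildtype (grey), with bars at the means of 2 libraries. *toy* over *ey* averaged 0.36 in the mutant and 2.20 in wildtype without overlap, whereas *eyg* over *toe* overlapped.

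For the related genes, the difference of the log2 ratio between mutant and wildtype was -1.84 for *toy* over *ey*, 1.602 for *so* over *Optix* and 0.50 for *eyg* over *toe*. A two-sided exact permutation test of 2 against 2 libraries cannot go below p = 0.333. The exact test gave that value for *toy* over *ey* and for *so* over *Optix*, and p = 0.667 for *eyg* over *toe*. Adjusted over the 3 pairs, the exact p-values were 0.5, 0.5 and 0.667. These differences are therefore descriptions. Without mutant replicate 1 the difference for *so* over *Optix* was 0.71, and with a pseudocount of 1 it was 0.24 and the genotypes overlapped.

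Other genes of the eye network were taken as a list. Of 20 listed regulators, ligands and receptors, 19 were found, 12 were tested, 7 passed as lower and 0 as higher, where 34.4% of all tested genes passed as lower and 6.98% as higher. The list median was -1.41. The largest falls were those of the receptor gene *N* (Notch), with FPKM of 2.84 and 2.11 in the mutant libraries, against 16.1 and 17.2 in the wildtype libraries (-2.35 in log2), of *emc*, an inhibitor of proneural proteins (-2.22), and of *wg*, a Wnt ligand that holds back the furrow (-2.05). *hth* and *tsh*, which act with *ey* ahead of the furrow, were also lower in both mutant libraries, and *hth* was not tested. With the libraries rescaled, 4 of the 12 passed as lower, where 10.1% of all tested genes did. All 19 genes found lay wholly below wildtype as deposited, and 17 of them rescaled, where 66.0% and 40.1% of all genes did.

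Of 17 listed genes for the differentiation of photoreceptors, 5 were tested and all 5 passed as lower, where 34.4% of all tested genes did, with a median log2 fold change of -1.52. *sev*, the receptor kinase that specifies a single photoreceptor type, had FPKM of 2.06 and 1.78 in the mutant libraries, against 13.9 and 14.2 in the wildtype libraries (log2 fold change -2.37, adjusted p = 0.00230 from limma). *ttk* and *sina*, which act against and for neuronal fate in the same cells, were at -1.62 and -1.52. With the libraries rescaled, only *sev* of the 5 passed, where 10.1% of all tested genes did. Of all 17 listed genes, 16 lay wholly below wildtype as deposited and 14 rescaled, where 66.0% and 40.1% of all genes did.

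Genes for light detection work in finished photoreceptors. At this stage the larva already sees with its own small eyes, the Bolwig organs, which use the opsins *Rh5* and *Rh6*. *Rh5* had FPKM of 1.86 and 1.22 in the mutant libraries, against 1.49 and 1.14 in the wildtype libraries, so that the genotypes overlapped. *Rh6* had 3.85 and 4.92 in the mutant libraries, against 6.48 and 5.95 in the wildtype libraries (log2 fold change -0.43, adjusted p = 0.105 from limma). Of 19 listed genes, 3 were tested and 0 passed, where 34.4% of all tested genes passed as lower and 6.98% as higher. So few tested genes say little of the list. Their median was -0.56, where that of all tested genes was -0.84. Tested or not, 9 of the 19, *Rh6* among them, lay wholly below wildtype and 1 wholly above, where 66.0% of all genes lay below, and with the libraries rescaled 3 lay below, where 40.1% of all genes did. *norpA*, the phospholipase of phototransduction, was among them, with FPKM of 2.07 and 1.38 in the mutant libraries, against 3.81 and 4.37 in the wildtype libraries. The opsin of the outer adult photoreceptors, *ninaE*, lay at 0.0815 and 0.254 in the mutant libraries, against 0.353 and 0.0861 in the wildtype libraries. A difference between this list and the eye determination genes was not tested.

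The other genes of the Pax and *so* families were low in both genotypes. None of the 7 was tested, 1 of them (*prd*) was listed at 0 in both mutant libraries, and all 7 had lower FPKM in both mutant libraries than in both wildtype libraries, where 66.0% of all genes did. After rescaling, 6 of the 7 did so, *Poxm* being the exception, where 40.1% of all genes did. The list summed to 1.03 to 1.28 FPKM in the mutant and 4.40 to 4.47 FPKM in wildtype. *sv*, the Pax2 gene on chromosome 4, had FPKM of 0.212 and 0.117 in the mutant libraries, against 0.467 and 0.486 in the wildtype libraries.

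**Figure D4:**
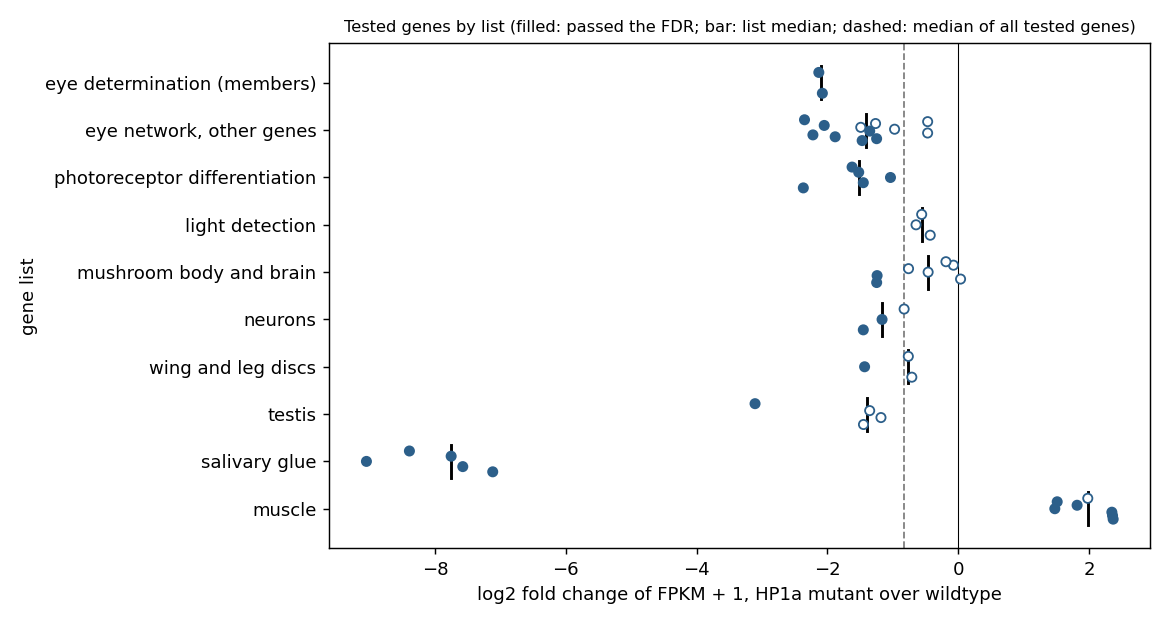
Log2 fold change of FPKM + 1 (HP1a mutant over wildtype) of each tested gene, by list, with filled points for genes past the FDR of 0.01, bars at the list medians and a dashed line at the median of all tested genes, -0.84. The 2 tested eye determination genes lie at -2.13 and -2.08, light detection genes at -0.65 to -0.43, and salivary glue and muscle genes at the far left and far right.

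Markers of stage and of other tissues were measured beside these genes. The 6 salivary glue genes, which mark the end of larval life, summed to 74.98 and 484 FPKM in the mutant libraries, against 49634 and 53125 FPKM in the wildtype libraries. All 5 tested glue genes passed as lower, where 34.4% of all tested genes did, with a median log2 fold change of -7.75. Muscle genes went the other way, with a sum of 13890 to 15509 FPKM in the mutant and 3229 to 3674 FPKM in wildtype. Of 7 tested muscle genes, 6 were higher past the FDR and 0 lower, where 6.98% of all tested genes were higher. With the libraries rescaled 6 of the 7 were higher, where 1178 of the 9447 tested genes were. The 10 wing and leg disc genes summed to 24.3 to 27.0 FPKM in the mutant and 60.0 to 64.7 FPKM in wildtype. Of these, 3 were tested and 1 was lower past the FDR, a share near the 34.4% of all tested genes. All 10 disc genes lay wholly below wildtype, where 66.0% of all genes did. With the libraries rescaled 7 of the 10 did so, where 40.1% of all genes did. *vg*, a selector of the wing, was at 0.0315 and 0.0979 in the mutant libraries, against 1.87 and 2.22 in the wildtype libraries.

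The 10 listed genes of neurons summed to 16.7 to 18.1 FPKM in the mutant and 41.6 to 46.0 FPKM in wildtype, and 2 of 3 tested genes passed as lower (*elav* and *Syt1*), where 34.4% of all tested genes did. In the list for mushroom body and brain, 2 of 7 tested genes passed as lower (*Fas2* and *rut*), no larger a share than the 34.4% of all tested genes, with a median of -0.46, and the list summed to 41.3 to 67.1 FPKM in the mutant and 148 to 157 FPKM in wildtype. Much of that wildtype sum was *br*, at 63.2 and 72.0 FPKM. In the testis list, 1 of 4 tested genes passed as lower (*dj*), also no larger a share than that of all tested genes, and its sum was 8.05 to 10.7 FPKM in the mutant and 59.0 to 71.6 FPKM in wildtype. All 10 testis genes lay wholly below wildtype, as deposited and rescaled, as the 10 eye determination genes did. Of the 10 neuron genes 8 did so as deposited and 5 rescaled, and of the 10 brain genes 6 and 3. The shares of all genes were 66.0% and 40.1%. No gene of the glue, muscle, disc, neuron, brain and testis lists was at 0 in both mutant libraries. After rescaling, no tested gene of the disc, neuron or brain lists passed. The part of stage and of tissue make-up in the lower levels of the eye determination genes was not tested.

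The genes most like *ey* and *toy* across the 4 libraries were found by the Euclidean distance of log2(FPKM + 1). Nearest to *ey* among 13567 genes were *wry* (distance 0.081), *Alk* (0.084) and *stnA* (0.140). None of these lies on chromosome 4, which holds only 78 of the 13568 genes. Nearest to *toy* among 9446 tested genes were *CG4631* (0.116), *CG12674* (0.162) and *CG42766* (0.183), on 2L and the X chromosome.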

How the data were processed

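Total RNA of whole larvae was isolated with Trizol, and rRNA-depleted libraries were sequenced on the Illumina platform. The authors deposited FPKM values, with lower and upper bounds and a status, for 22608 RefSeq transcript entries in each library. TopHat and Cufflinks are named in the submitters' processing notes, while no source used here gives their versions or the use of strand. The scaffold names are those of Release 5.

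RefSeq (Release 6, used for names only) gave a gene for 21388 entries, and FPKM were summed per gene. Where the status is OK, a bound lies 2 times the FPKM over the square root of the fragments from the FPKM, which gave the fragments. For other entries, the FPKM was divided by that of 1 fragment of the same transcript. The comparison of genotypes used limma 3.58.1 under R 4.3.3 (two-sided moderated test with a variance trend) on log2(FPKM + 1), with Benjamini-Hochberg adjustment at an FDR of 0.01, over genes with a mean above 1.4 and status OK in all 4 libraries. No count model was used. Python 3.11.15 and matplotlib 3.10.9 were used for the rest.

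All 10 genes are named. From each list (regulators of the eye, photoreceptor differentiation, light detection, other genes of the Pax and *so* families, mushroom body and brain, neurons, discs, glue, muscle, testis; *elav* is in 2 lists) at most the 3 largest changes in each direction that passed are named under the rule, and other genes named were chosen after their values were seen. The genes and lists were chosen with earlier results of these data known. 1 listed gene was not analysed here. The alternatives were pseudocounts of 0.1 and 5, other filters, 2 rescalings, the replicate number as a block and leaving out each library. No RefSeq sequence table was used here, so no sequences are shown.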

Additional observations from a re-analysis of the deposited data

How the results depend on the processing

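The count of eye determination genes that passed as lower in limma was 2 as reported. There 2 of the 10 could be tested. With no filter on low values the count was 4 of 6 tested, where 3112 of 12175 genes passed as lower. It was 4 of 4 tested with any status, where 3386 of 10017 genes did. With neither filter (added after the data were seen) it was 6 of 10, where 24.6% of the 13177 genes did. The genes that enter differ between these fits, so the counts cannot be compared as support. With quantile normalization the count was 0 of 2. Leaving out 1 library gave 0 to 2, with 0 without either wildtype library. With the libraries rescaled it was 1. No gene of the 10 had a mean FPKM above 5 over all 4 libraries, so this filter gave no value. No gene passed as higher in any of these fits. Over all tested genes, 3249 passed as lower and 659 as higher. With the libraries rescaled, these were 957 and 1178, with quantile normalization 868 and 1022, and leaving out 1 library gave 0 to 3876 and 0 to 824. With neither filter and rescaled, 2 of the 10 eye determination genes passed as lower, against 6 without the rescaling, and 662 of all genes passed as lower and 1307 as higher. With 1 library of a genotype left, that library is assumed to vary like the others. The replicate block left 2337 lower and 576 higher, and *toy* and *eya* still passed. Same-numbered libraries deviated together only weakly (r = 0.03 across 9447 genes, which are not independent replicates). The labels do not say whether same-numbered libraries were prepared together, and this correlation cannot decide it. The difference in log2 ratio of *eyg* over *toe* reversed with a pseudocount of 1, at -0.63, and ranged between -0.074 and 1.06 when 1 library was left out. All 104 alternative log2 fold changes of the 10 genes were negative. The cause of these shifts was not tested beyond what each setting changes by construction. With 2 to 29 fragments for most genes in a mutant library, depth limits every ratio among the low genes.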
